A study of Homo sapiens with 40 samples.

Results

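The genes described here encode growth factor and hormone receptors of the cell surface. They are the 4 ERBB receptor tyrosine kinases (EGFR, ERBB2, ERBB3 and ERBB4), the related kinases IGF1R and INSR, the fibroblast growth factor receptors FGFR1, FGFR2 and FGFR4, and the prolactin receptor PRLR. They were chosen by name, as 10 of the 60279 genes in the deposited count tables, and they were followed in 33 of the 40 deposited single cells. The study compared protocols that turn the mRNA of 1 cell into a sequencing library. All cells were T47D, an established human breast cancer line of luminal type, at passage 10. They were sorted as EpCAM+/CD49f+ cells that were negative for CD45 and CD31. No drug or genetic change separated the groups.

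The 3 groups were G&T, in which the mRNA of a lysed cell is first pulled away from its DNA, Takara (the SMART-Seq HT kit) and NEB (the NEBNext Single Cell/Low Input kit). Each group had 11 kept cells. NEB libraries went through more PCR cycles than the others. Each protocol was sequenced in 1 run of its own, and what belongs to the protocol and what to its run cannot be told apart. The number of cultures and plates per protocol is not given, and the labels name no replicate above the cell. Each protocol therefore counts as 1 sample, no test was made between protocols, and the spread over cells is not a spread over replicates. Levels are given as CPM, the reads of a gene scaled to 1000000 reads on genes in the same cell. Pooled CPM is computed from the summed reads of the 11 cells, with a 95% exact Poisson interval. Reads carry no molecular identifiers, so every interval covers counting error only.

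Receptors of the ERBB family bind growth factors outside the cell, pair with each other and pass the signal to the RAS-MAPK and PI3K branches inside. ERBB2 has no known ligand of its own and ERBB3 has a weak kinase, so both act mainly in pairs, and ERBB2 is the target of antibodies used against breast cancer. IGF1R and INSR answer to insulin-like growth factors and insulin, the FGFR proteins to fibroblast growth factors, and PRLR, which has no kinase of its own, signals through JAK2 and STAT5 in mammary epithelium.

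The receptors lie on different chromosomes apart from PRLR and FGFR4, which share chromosome 5. In GENCODE 44 on GRCh38, EGFR is at chr7:55019017-55211628 (+), ERBB2 at chr17:39687914-39730426 (+), ERBB3 at chr12:56076799-56103505 (+) and ERBB4 at chr2:211375717-212538841 (-). PRLR is at chr5:35048756-35230487 (-), IGF1R at chr15:98648539-98964530 (+) and INSR at chr19:7112255-7294414 (-). FGFR2 is at chr10:121478332-121598458 (-) and FGFR4 at chr5:177086905-177098144 (+). Their main (MANE Select) transcripts differ widely in length and in base composition. The G+C content ran from 38.4% in PRLR (11581 bases) and 39.6% in ERBB4 (12097 bases) to 60.4% in ERBB2 (4557 bases) and 63.4% in FGFR4 (3093 bases). Between these ends lay EGFR (47.8%, 9905 bases), FGFR2 (49.0%, 4624 bases), INSR (50.5%, 9463 bases), ERBB3 (51.3%, 5615 bases), IGF1R (51.7%, 12235 bases) and FGFR1 (55.9%, 5697 bases). Over the 15167 genes with at least 1 CPM in a protocol the medians were 47.7% and 2913 bases, so all 10 receptors have a longer transcript than the median, FGFR4 by the least.

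To show this contrast in composition, 1 stretch of 120 coding bases is shown for each of the receptors at its ends. Each stretch lies inside 1 coding exon and was picked because its G+C content is nearest to that of the whole coding sequence of its gene. It is written 5′ to 3′ on the gene's strand from the GENCODE 44 transcripts, and capitals mark G and C. The PRLR stretch is in exon 5 of 10 (chr5:35084476-35084595), the ERBB4 stretch in exon 15 of 28 (chr2:211665342-211665461), the ERBB2 stretch in exon 3 of 27 (chr17:39708324-39708443) and the FGFR4 stretch in exon 3 of 18 (chr5:177090519-177090638).
PRLR: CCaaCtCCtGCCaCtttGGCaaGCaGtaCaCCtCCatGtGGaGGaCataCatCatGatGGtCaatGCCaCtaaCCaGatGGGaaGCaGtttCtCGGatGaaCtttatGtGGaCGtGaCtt
ERBB4: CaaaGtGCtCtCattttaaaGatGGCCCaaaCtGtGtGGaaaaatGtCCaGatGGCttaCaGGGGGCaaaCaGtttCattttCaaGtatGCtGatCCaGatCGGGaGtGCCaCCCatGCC
ERBB2: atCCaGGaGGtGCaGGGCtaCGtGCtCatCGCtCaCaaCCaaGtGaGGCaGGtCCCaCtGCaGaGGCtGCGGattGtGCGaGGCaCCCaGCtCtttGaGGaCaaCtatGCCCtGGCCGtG
FGFR4: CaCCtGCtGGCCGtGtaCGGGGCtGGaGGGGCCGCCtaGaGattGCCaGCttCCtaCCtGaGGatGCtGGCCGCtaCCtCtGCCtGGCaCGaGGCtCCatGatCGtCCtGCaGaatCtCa

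G and C make up 48.3% of the PRLR stretch, 46.7% of the ERBB4 stretch, 60.8% of the ERBB2 stretch and 63.3% of the FGFR4 stretch. In PRLR and ERBB4 the coding part (48.7% and 47.0% G+C) is richer in G+C than the whole transcript, and in ERBB2 and FGFR4 (60.8% and 63.6%) it differs little from it.

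The kept cells had libraries of 672328 to 1192383 reads on genes and ERCC spike-ins in G&T, 827663 to 1297218 in Takara and 720899 to 1021613 in NEB. Spike-ins took a median of 1.80% of them in G&T and 0.977% in Takara, and 11.9% in NEB. A cell had reads on a median of 11253 genes in G&T and 10983 in Takara, and 5161 in NEB. The label of a luminal epithelial line was checked with 8 markers (EPCAM, KRT8, KRT18, KRT19, GATA3, FOXA1, ESR1 and PGR). All 8 had reads in every G&T cell and every Takara cell, and 6 of 8 in every NEB cell, with a summed level of 3931 to 15639 CPM per cell in G&T, 9989 to 26747 CPM in Takara and 1748 to 6731 CPM in NEB. Markers of other cell types were far lower. The 4 basal and myoepithelial markers summed to at most 7.60 CPM in a G&T cell, 141 CPM in a Takara cell and 0 in NEB cells, the 4 fibroblast markers to at most 47.2, 48.5 and 50.04 CPM, the 3 endothelial markers to at most 25.5 CPM in G&T and 0 elsewhere, and the 4 immune markers to at most 26.99, 23.2 and 54.7 CPM. Their part in the results was not tested.

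PRLR held most of the receptor reads in every protocol. It took 84.2% of the reads on the 10 genes in G&T and 67.1% in Takara, and 86.9% in NEB, and it had reads in all 33 cells. In G&T cells its level was lowest at 679 CPM (cell E2), with a median of 1731 and a highest value of 3471 (C1). Takara cells ran from 226 CPM (D2) through a median of 536 to 954 (G1). NEB cells ran from 197 CPM (C1) through a median of 1619 to 3899 (B1). The cells of the 3 protocols overlapped, and the Takara cells lay low, since their highest cell was below the median of both other protocols. Pooled, PRLR stood at 1784 CPM in G&T (1758 to 1812) and 575 CPM in Takara (561 to 589), against 1643 CPM in NEB (1615 to 1671). G&T exceeded Takara 3.10-fold (counting interval 3.02 to 3.19) and NEB exceeded Takara 2.86-fold (2.77 to 2.94), while G&T and NEB differed by 1.09-fold (1.06 to 1.11).

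The sum of all 10 receptors followed PRLR. Per cell it was lowest at 873 CPM, with a median of 1990 and a highest value of 3965, in G&T. The Takara cells ran from 402 through 891 to 1264 CPM and the NEB cells from 725 through 1776 to 4058 CPM. Without PRLR the other 9 receptors summed to much closer levels. They ran from 101 through 353 to 529 CPM in G&T cells, from 172 through 297 to 394 CPM in Takara cells and from 28.4 through 235 to 528 CPM in NEB cells. All receptors together took 0.212% of the reads on genes in G&T and 0.0857% in Takara, and 0.189% in NEB.

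ERBB3, the ERBB partner that binds neuregulins, was the only ERBB gene with reads in every kept cell of all 3 protocols. Its level ran from 49.8 CPM (H1) through 152 to 245 (D2) in G&T cells, from 58.8 (B1) through 156 to 256 (H1) in Takara cells and from 8.52 (H2) through 68.7 to 168 (C1) in NEB cells. G&T and Takara cells covered nearly the same range, and NEB cells reached lower. Pooled levels were 152 CPM in G&T (145 to 160) and 155 CPM in Takara (148 to 163), against 73.2 CPM in NEB (67.4 to 79.4). The G&T to Takara ratio was 0.981 (0.915 to 1.05), which made ERBB3 the receptor with the smallest difference between those protocols. NEB was 2.08-fold lower than G&T (1.89 to 2.29) and 2.12-fold lower than Takara (1.93 to 2.33), gaps that lie close to the 2-fold line. The log2 ratio of G&T over NEB was 0.99 without G&T cell A2, 0.92 without G&T cell D2, 0.98 without NEB cell B1, 0.94 without NEB cell E2 and 0.93 without NEB cell H2, and 0.95 when libraries were scaled by TMM, which trims extreme genes. That of Takara over NEB was 0.96 without Takara cell H1, NEB cell E2 or NEB cell H2.

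ERBB2, the HER2 receptor, was present in every Takara cell, in 9 G&T cells and in 3 NEB cells. Takara cells ran from 1.22 CPM (D2) through 40.8 to 148 (G1), and G&T cells from 0 through 26.2 to 106 (C1). In NEB 8 of 11 cells had no ERBB2 read, the lowest and the median were 0, and the highest was 33.6 CPM (G2). The other NEB cells with reads were low, D1 at 2.08 and C1 at 3.06 CPM, while G2 lay above the G&T median and below the Takara median. Pooled, ERBB2 reached 60.1 CPM in Takara (55.7 to 64.7), 30.5 CPM in G&T (27.1 to 34.2) and 3.14 CPM in NEB (2.03 to 4.63). It was 19.2-fold higher in Takara than in NEB (12.9 to 29.8), 9.74-fold higher in G&T than in NEB (6.46 to 15.3) and 1.97-fold higher in Takara than in G&T (1.71 to 2.26). In NEB the single cell G2 held 84.0% of its 25 reads, and without that cell the pooled level was 0.544 CPM and the log2 ratios to NEB were 4.35 for G&T and 5.31 for Takara. The log2 ratio of G&T over Takara was -0.95. It passed 2-fold without G&T cell B2 (-1.06) or C1 (-1.42), and with TMM scaling (-1.01). It also did so without any 1 of the Takara cells A2, B1, D1, D2, E1 and E2 (-1.002 to -1.06). Furthest inside 2-fold was -0.68, without Takara cell G1, which held 26.6% of the Takara reads.

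EGFR, the receptor of EGF and amphiregulin, was thinly covered. It had reads in 9 cells of G&T, 5 of Takara and 2 of NEB. G&T cells ran from 0 through 11.9 to 40.5 CPM (D1), Takara cells from 0 through 0 to 29.0 CPM (A2) and NEB cells from 0 through 0 to 2.08 CPM (D1). The pooled level was 13.47 CPM in G&T (11.2 to 16.0) and 4.86 CPM in Takara (3.68 to 6.30). NEB had 3 reads, or 0.376 CPM (0.0776 to 1.10). G&T was 2.77-fold higher than Takara (2.01 to 3.85). The ratios to NEB, 35.8 for G&T (11.98 to 176) and 12.9 for Takara (4.21 to 64.6), rest on those 3 reads and on the choice of cells. NEB well F2, which was not kept, held 28 EGFR reads, and with all deposited cells the log2 ratio of G&T over NEB was 1.53 in place of 3.39 and that of Takara over NEB 0.42 in place of 2.09. In Takara, cell A2 held 54.4% of the EGFR reads, and the pooled level without it was 2.44 CPM, with log2 ratios of 2.07 for G&T over Takara and 1.32 for Takara over NEB.

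ERBB4, which like ERBB3 binds neuregulins, was found in a minority of cells everywhere, in 5 G&T, 3 Takara and 4 NEB cells. Its median was therefore 0 in each protocol. The highest cells were E2 in G&T at 51.2 CPM, E2 in Takara at 11.6 CPM and E2 in NEB at 213 CPM, and these are separate cells, as a well name only gives a place on each plate. The pooled level was 11.4 CPM in G&T (9.33 to 13.7) and 1.37 CPM in Takara (0.781 to 2.22), against 26.6 CPM in NEB (23.1 to 30.4). ERBB4 was 8.32-fold higher in G&T than in Takara (4.90 to 15.1), 19.5-fold higher in NEB than in Takara (11.7 to 34.7) and 2.34-fold higher in NEB than in G&T (1.85 to 2.98). Single cells decided much of this. NEB cell E2 held 76.4% of the NEB reads, and without it NEB stood at 6.93 CPM and the log2 ratio of G&T over NEB changed from -1.16 to 0.64. That of Takara over NEB changed from -3.54 to -1.75. Without G&T cell E2 the G&T level was 6.91 CPM, with log2 ratios of 1.74 over Takara and -1.80 over NEB. Without Takara cell E2 the Takara level was 0.465 CPM, with log2 ratios of 3.08 for G&T over Takara and -4.24 for Takara over NEB.

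**Figure D1:**
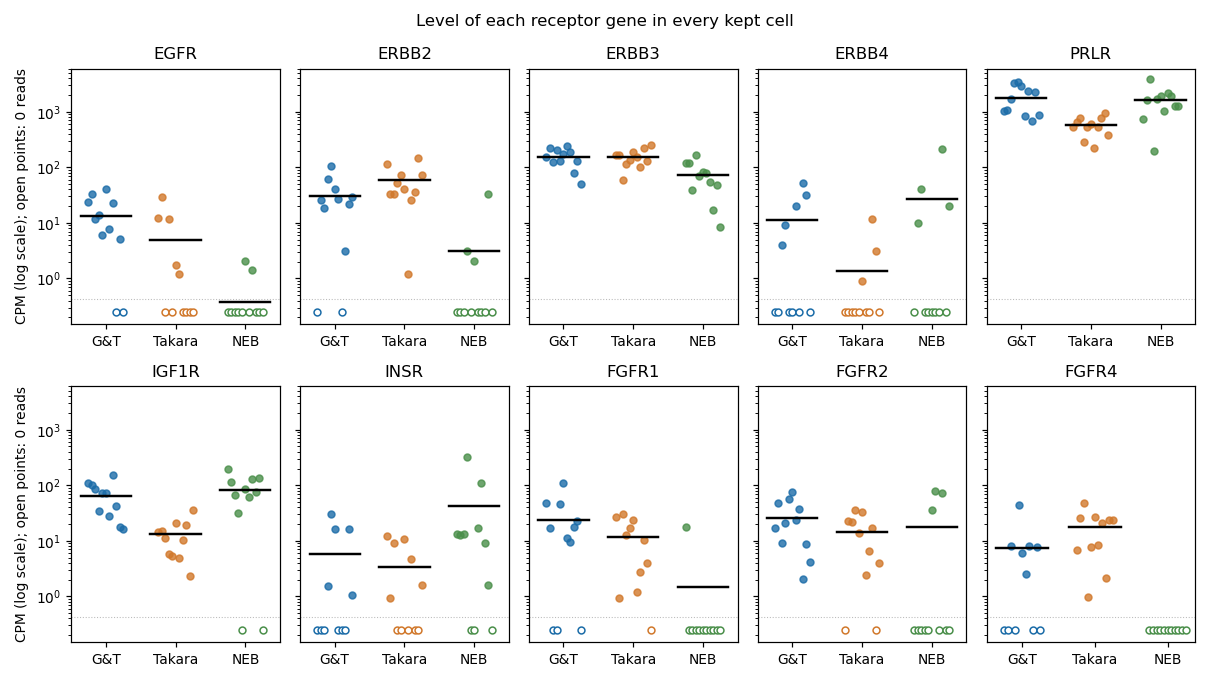
Each point is 1 kept cell (11 per protocol), the vertical axis is its level in CPM on a log scale, open points below the dotted line are cells with 0 reads, and black bars are pooled levels. PRLR and ERBB3 have reads in all 33 cells, whereas ERBB2, FGFR1 and FGFR4 fall to 3, 1 and 0 cells with a read in NEB.

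The make-up of the ERBB family was compared as shares of the reads on its 4 genes, with exact binomial intervals. ERBB3 took 73.3% in G&T (71.3 to 75.3) and 70.1% in Takara (68.3 to 71.8), against 70.9% in NEB (67.6 to 74.0). The shares were also taken without each cell in turn, a check chosen after the data had been seen. The NEB share rests on cell E2, without which ERBB3 made up 87.98% and ERBB4 7.70% of the NEB reads. Without any 1 cell the ERBB3 share was 71.6% to 76.01% in G&T and 68.6% to 73.9% in Takara. The remainder was split differently. ERBB2 made up 14.7% in G&T (13.2 to 16.3) and 27.1% in Takara (25.4 to 28.9), against 3.03% in NEB (1.97 to 4.45). ERBB4 made up 5.47% (4.51 to 6.57), 0.616% (0.353 to 0.999) and 25.7% (22.8 to 28.9), and EGFR 6.49% (5.44 to 7.67), 2.19% (1.67 to 2.83) and 0.364% (0.0751 to 1.06), in the same order. In single cells the ERBB3 share ranged from 54.0% through a median of 71.4% to 89.1% in G&T, from 45.9% through 72.9% to 98.5% in Takara and from 7.43% through 95.2% to 100% in NEB. The NEB cell with the low share was that with most ERBB4 reads. Per kb of transcript the ERBB3 shares were 75.1%, 66.7% and 81.7%.

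**Figure D2:**
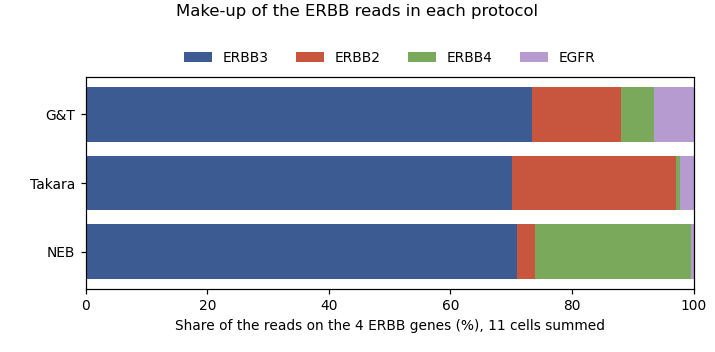
Bars show the share of reads (%) on each of the 4 ERBB genes, summed over the 11 kept cells of a protocol. ERBB3 fills 70.1% to 73.3% of each bar, and the second largest part is ERBB2 in G&T and Takara but ERBB4 in NEB.

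IGF1R, the receptor of the insulin-like growth factors, had reads in all G&T and Takara cells and in 9 NEB cells. G&T cells ran from 16.6 CPM (H1) through 71.5 to 152 (E1), Takara cells from 2.37 CPM (G1) through 11.4 to 35.5 (H1), and NEB cells from 0 through 76.4 to 200 CPM (A1). Takara cells lay low, with their highest cell below the medians of G&T and NEB. Pooled levels were 64.0 CPM in G&T (59.01 to 69.3) and 13.4 CPM in Takara (11.4 to 15.7), against 81.6 CPM in NEB (75.5 to 88.2). IGF1R was 4.78-fold higher in G&T than in Takara (4.00 to 5.73), 6.09-fold higher in NEB than in Takara (5.11 to 7.30) and 1.28-fold higher in NEB than in G&T (1.14 to 1.43).

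INSR, the insulin receptor, showed the same order at lower levels. It had reads in 5 G&T, 6 Takara and 8 NEB cells. G&T cells ran from 0 through 0 to 30.6 CPM (C1), Takara cells from 0 through 0.935 to 12.4 CPM (A1) and NEB cells from 0 through 12.6 to 324 CPM (C1). Pooled, INSR stood at 5.89 CPM in G&T (4.45 to 7.65) and 3.41 CPM in Takara (2.44 to 4.65), against 42.4 CPM in NEB (38.0 to 47.2). It was 12.4-fold higher in NEB than in Takara (8.93 to 17.7) and 7.19-fold higher in NEB than in G&T (5.41 to 9.72). NEB cell C1 held 62.7% of the NEB reads, and without it NEB stood at 17.2 CPM, with log2 ratios over NEB of -1.40 for G&T and -2.04 for Takara. G&T cell C1 held 53.6% of the G&T reads, and without it G&T stood at 3.05 CPM and the log2 ratio of G&T over Takara went from 0.64 to -0.12 and that of G&T over NEB to -3.42.

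FGFR1, FGFR2 and FGFR4 behaved differently from each other. FGFR1 (chr8:38400215-38468834, minus strand) had reads in 8 G&T, 10 Takara and 1 NEB cell. Its cells ran from 0 through 17.1 to 108 CPM (D1) in G&T and from 0 through 10.5 to 31.0 CPM (B1) in Takara, and the only NEB cell with reads was A1 with 12 reads. The pooled levels were 23.6 CPM in G&T (20.6 to 26.9) and 11.6 CPM in Takara (9.74 to 13.7), against 1.505 CPM in NEB (0.778 to 2.63), and 0 in NEB without cell A1. FGFR1 was 15.7-fold higher in G&T than in NEB (8.79 to 30.8) and 7.71-fold higher in Takara than in NEB (4.27 to 15.3), with log2 ratios of 4.62 and 3.66 without cell A1. The pooled levels of G&T and Takara differed by 2.03-fold (1.63 to 2.53). On the log2 scale, where 1 CPM is added to each level, the ratio was 0.96. That value passed 2-fold without any 1 of 6 G&T cells (B1, B2, D2, E1, E2 and H1) or 4 Takara cells (A1, B1, C1 and D1), at 1.00 to 1.18. Its lowest value was 0.53, without G&T cell D1, which held 32.1% of the G&T reads.

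FGFR2 was the receptor with the least change in pooled level among the FGFR genes, but not in the number of cells. It had reads in all G&T cells, in 9 Takara cells and in 3 NEB cells. Its level ran from 2.09 CPM (E2) through 21.3 to 75.0 (D1) in G&T cells and from 0 through 13.98 to 35.8 CPM (B2) in Takara cells. NEB cells ran from 0 through 0 to 77.5 CPM (D2). The NEB cells D2 and E2 (73.7 CPM) stood near the highest G&T cell, D1 was lower at 36.3 CPM, and the other 8 had no read. Pooled levels were 26.2 CPM in G&T (23.1 to 29.7) and 14.3 CPM in Takara (12.2 to 16.6), against 17.8 CPM in NEB (15.0 to 21.0). The Takara to NEB ratio of 0.8004 had a counting interval of 0.636 to 1.01. On the log2 scale G&T over Takara was 0.84, and 1.05 or 1.04 without Takara cell B2 or D1, and G&T over NEB was 0.53, and 1.02 or 1.07 without NEB cell D2 or E2.

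FGFR4 was the only receptor with no overlap between the cells of a pair of protocols. It had reads in all Takara cells, in 6 G&T cells and in no NEB cell. Takara cells ran from 0.967 CPM (B2) through 20.5 to 48.5 (B1), G&T cells from 0 through 2.57 to 44.9 CPM (C1), and all 11 NEB cells had 0 reads. Of all tested genes, 8.41% were higher in every Takara cell than in every NEB cell, so 1 of 10 receptors is near that background. In the other direction and the other pairs 0 of 10 receptors were without overlap. The background there was 1.61% of genes higher in every NEB than in every Takara cell, 3.31% higher in G&T than in NEB, 1.03% higher in NEB than in G&T, 0.669% higher in G&T than in Takara and 1.26% higher in Takara than in G&T. Pooled, FGFR4 stood at 18.1 CPM in Takara (15.7 to 20.7) and 7.47 CPM in G&T (5.84 to 9.43). A count of 0 in NEB allows up to 0.376 CPM over the 11 cells, and the pooled levels of Takara and G&T lay 48.1-fold and 19.9-fold above that limit. These folds leave out the counting error of Takara and G&T. The counting intervals of the ratios to NEB, which include it, had lower ends of 38.8 for Takara and 15.7 for G&T. FGFR4 was 2.42-fold higher in Takara than in G&T (1.84 to 3.21). G&T cell C1 held 62.0% of the G&T reads, and without it G&T stood at 3.17 CPM, with log2 ratios of -2.20 over Takara and 2.06 over NEB. Without Takara cell B1 the log2 ratio of G&T over Takara was -0.95.

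**Figure D3:**
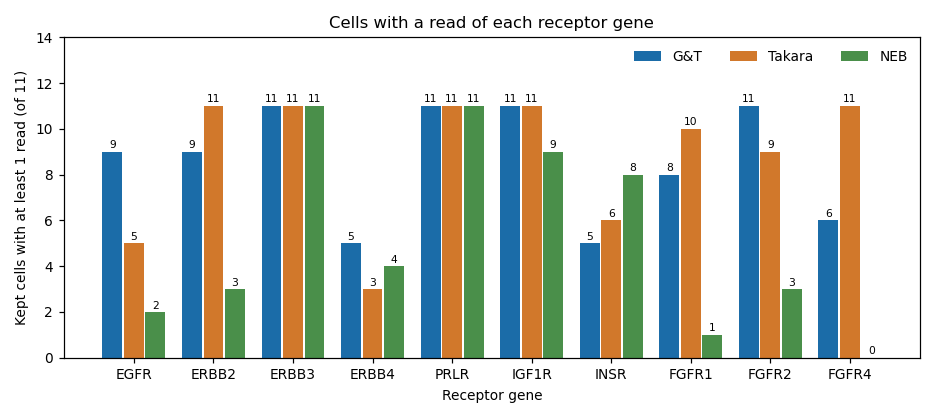
Bars give the number of the 11 kept cells of a protocol with at least 1 read of each receptor. NEB bars are shorter than both others for EGFR, ERBB2, IGF1R, FGFR1, FGFR2 and FGFR4, and longer than both for INSR only.

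Counted over all receptors, 86 of the 110 pairs of a receptor and a cell had a read in G&T, 88 of 110 in Takara and 52 of 110 in NEB. A cell showed a median of 8 receptors in G&T (6 to 10) and 8 in Takara (7 to 10), against 5 in NEB (2 to 6). Genes as a whole were also fewer in NEB, with a median of 5161 per cell, against 11253 in G&T and 10983 in Takara. The lower NEB counts were thus not particular to the receptors. All cells had reads for 4 of 10 receptors in G&T, 5 of 10 in Takara and 2 of 10 in NEB. Of all tested genes, 36.7% had reads in every kept G&T cell, 43.4% in every Takara cell and 9.13% in every NEB cell. The receptor counts lie near those shares in G&T and Takara, and PRLR and ERBB3 made up the NEB count.

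Levels can be compared between receptors only per length, as pooled CPM per kb of transcript. On that scale PRLR led in each protocol, with 154 CPM per kb in G&T and 49.6 in Takara, and 142 in NEB, followed by ERBB3 with 27.1, 27.7 and 13.04. ERBB2 took place 3 in G&T at 6.70 CPM per kb and in Takara at 13.2, but place 7 in NEB at 0.688. The next places in G&T were FGFR2 (5.67 CPM per kb), IGF1R (5.23), FGFR1 (4.14), FGFR4 (2.42), EGFR (1.36), ERBB4 (0.940) and INSR (0.623). In Takara FGFR4 took place 4 (5.85 CPM per kb), before FGFR2 (3.08), FGFR1 (2.04), IGF1R (1.10), EGFR (0.491), INSR (0.361) and ERBB4 (0.113). In NEB IGF1R took place 3 (6.67 CPM per kb), before INSR (4.48), FGFR2 (3.85) and ERBB4 (2.20), and FGFR1 (0.264), EGFR (0.0380) and FGFR4 (0) came last. Of 9 pairs of neighbours in each order, the means over cells differed by more than the larger SD of the pair in 2 cases in G&T, 2 cases in Takara and 1 case in NEB. These were PRLR against ERBB3 in each protocol and ERBB3 against ERBB2 in G&T and Takara. All other neighbours, from ERBB2 downwards in G&T and Takara and from ERBB3 downwards in NEB, lay within the spread of the cells.

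The ratios between protocols were then set beside those of all genes, as log2 of (pooled CPM + 1). Between G&T and Takara, 4 of 10 receptors were at least 2-fold higher in G&T (ERBB4 2.39, IGF1R 2.17, PRLR 1.63 and EGFR 1.30 on the log2 scale), beside 25.7% of 14658 tested genes. FGFR4 (-1.17) was the only receptor past 2-fold in the other direction, beside 17% of genes. FGFR1 (0.96, and 2.03-fold without the added 1 CPM) and ERBB2 (-0.95) lay just inside the 2-fold line. The median log2 ratio was 0.90 over the receptors and 0.16 over all tested genes.

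Between G&T and NEB, 5 of 10 receptors were at least 2-fold higher in G&T, beside 48.7% of 14795 genes. They were EGFR (log2 ratio 3.39), FGFR1 (3.29), FGFR4 (3.08), ERBB2 (2.93) and ERBB3 (1.05). As FGFR4 had 0 reads in NEB, the size of its ratios to NEB depends on the 1 CPM added. INSR (-2.65) and ERBB4 (-1.16) were past 2-fold higher in NEB, beside 19.5% of genes. FGFR2 (0.53), PRLR (0.12) and IGF1R (-0.35) lay inside 2-fold. The median was 0.79 over the receptors and 0.92 over all genes, and the receptors' counts lie near the background.

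Between Takara and NEB the receptors were spread most widely. The 5 that were at least 2-fold higher in Takara were FGFR4 (log2 ratio 4.26), ERBB2 (3.88), FGFR1 (2.33), EGFR (2.09) and ERBB3 (1.07), beside 43.7% of 13532 genes. The 4 that were at least 2-fold higher in NEB were ERBB4 (-3.54), INSR (-3.30), IGF1R (-2.52) and PRLR (-1.51), beside 24.3% of genes. Only FGFR2 (-0.30) lay inside 2-fold. The median was 0.39 over the receptors and 0.56 over all genes. The 3 comparisons share samples and are not independent of each other.

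The base composition and the length of the transcripts ran along with these ratios in part of the receptors. The receptors of lowest G+C content, PRLR and ERBB4, were higher in NEB than in Takara, and those of highest G+C content, FGFR4, ERBB2 and FGFR1, were lower. Those between did not line up by G+C content. INSR (log2 Takara over NEB -3.30) and IGF1R (-2.52) were higher in NEB, EGFR (2.09) and ERBB3 (1.07) were higher in Takara, and FGFR2 was at -0.30. Across the 10 receptors Spearman's rho between G+C content and the log2 ratio was 0.68 for Takara over NEB, 0.39 for G&T over NEB and -0.68 for G&T over Takara. Over all tested genes with an annotated transcript it was 0.58 (13376 genes), 0.54 (14591) and -0.12 (14487). The gradient was visible when all tested genes were split by G+C content into 5 groups of equal size. The median log2 ratio of Takara over NEB went from -0.98 in the group of lowest G+C through -0.37, 0.44 and 1.55 to 2.43 in the group of highest G+C. For G&T over NEB it went from -0.69 through -0.06, 0.79 and 1.40 to 2.23, and for G&T over Takara from 0.30 to -0.10. In the highest group 82.8% of genes were past 2-fold higher in Takara than in NEB, and in the lowest group 11.9%.

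Transcript length ran along with G+C content in part of the receptors. ERBB4 and PRLR are long and low in G+C, and FGFR4 and ERBB2 are the shortest and highest in G+C. IGF1R, the longest, holds 51.7% G+C. Across the receptors rho between length and the log2 ratio was 0.93 for G&T over Takara. With NEB as the lower term it was -0.49 for G&T and -0.77 for Takara. Over all genes the values were 0.19, -0.02 and -0.14. Genes share libraries, so these coefficients are descriptions. The part of composition and of length in the receptor ratios was not tested.

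**Figure D4:**
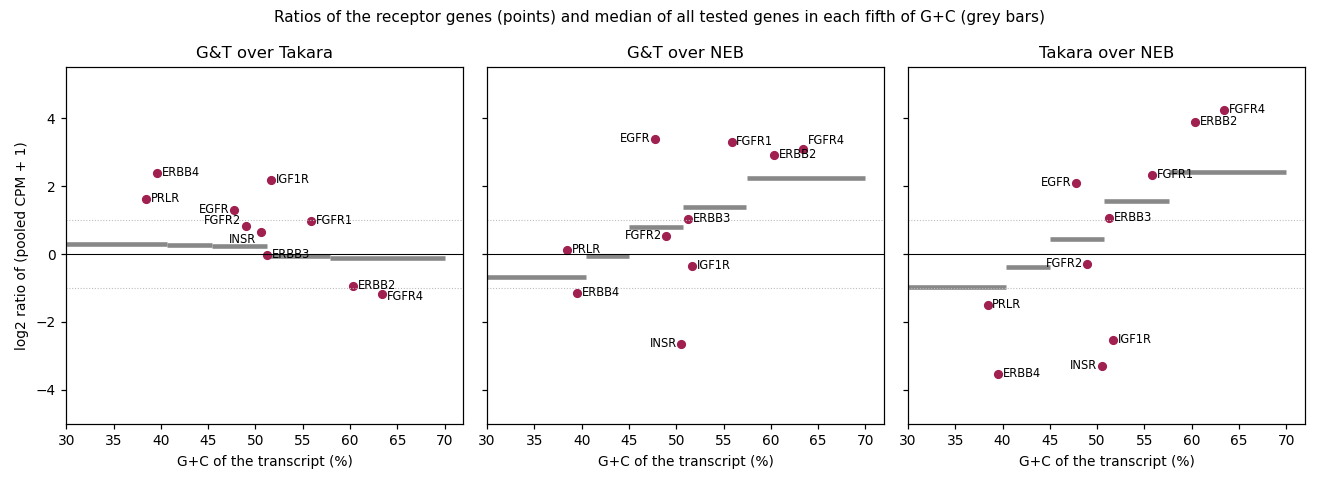
Points are the 10 receptors, with G+C content of the transcript (%) against the log2 ratio of pooled levels between a pair of protocols, and grey bars are the medians of all tested genes in 5 groups of G+C content, with the outer bars cut off at the sides. For Takara over NEB the bars climb from -0.98 to 2.43, FGFR4 and ERBB2 lie above the bar at the right, and ERBB4, IGF1R and INSR lie below the bars.

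Each receptor was also placed against genes of like composition, by taking off the median log2 ratio of all tested genes in the same of 10 equal groups of G+C content. This comparison was chosen after the data had been seen. FGFR4 had 0 reads in NEB, so its ratios to NEB depend on the 1 CPM added to each level. Before this step its log2 ratio of G&T over NEB was 6.24 with 0.1 CPM added and 1.32 with 5 CPM. Whether FGFR4 lies past 2-fold after the step therefore cannot be told. For Takara over NEB, ERBB3 went from 1.07 to -0.21, FGFR1 from 2.33 to 0.59 and PRLR from -1.51 to -0.69, all inside 2-fold. ERBB2 kept 1.54 and FGFR4 1.70 of their 3.88 and 4.26. IGF1R moved out from -2.52 to -3.80 and INSR from -3.30 to -4.00, while ERBB4 went from -3.54 to -2.72, EGFR from 2.09 to 1.39 and FGFR2 from -0.30 to -1.002. For G&T over NEB, ERBB2 went from 2.93 to 0.84, FGFR4 from 3.08 to 0.68 and ERBB3 from 1.05 to -0.20. EGFR at 2.36 and FGFR1 at 1.71 stayed past 2-fold higher in G&T, and INSR at -3.69 stayed past 2-fold higher in NEB. ERBB4 came inside 2-fold, from -1.16 to -0.66, and IGF1R passed it, from -0.35 to -1.59. For G&T over Takara FGFR1 passed 2-fold, from 0.96 to 1.10, while the other receptors stayed on the same side of it, ERBB4 at 2.10, IGF1R at 2.11, PRLR at 1.35, EGFR at 1.01, FGFR4 at -1.11 and ERBB2 at -0.79.

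The position of ERBB2 among its neighbours on chromosome 17 was followed with 6 genes, of which TCAP and PNMT did not reach the filter. Of the 4 tested, all were at least 2-fold higher in Takara than in NEB, with log2 ratios of 5.44 for STARD3 (a cholesterol carrier of late endosomes), 3.92 for GRB7 (an adaptor that binds ERBB receptors), 3.59 for PGAP3 (an enzyme that remodels lipid anchors) and 1.25 for MIEN1. The share of all tested genes past 2-fold in that direction was 43.7%. It was 82.8% in the group of highest G+C content, where STARD3, GRB7 and PGAP3 fall, and 63.1% in the group below, where MIEN1 falls. Their transcripts hold 54.4% (MIEN1) to 60.3% (STARD3) G+C. In NEB, STARD3 had 9 reads, GRB7 1 and PGAP3 0, against 381 for MIEN1. The size of the first 3 ratios thus rests on few or no NEB reads, and that of PGAP3 depends on the 1 CPM added. Exons of ERBB2 overlap those of other genes, mostly MIEN1 and PGAP3 on the other strand, over 6.93% of their length. The strand setting of the counts is not given in the sources used here, so reads there could belong to either gene. The overlap was 3.05% in FGFR1, 1.17% in EGFR, 0.265% in ERBB3 and 0% in the other 6 receptors.

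The receptors' ligands and partners were read from lists of 96 genes. Over these genes 81 had a read in a kept G&T cell, 77 in a Takara cell and 58 in an NEB cell. Past 2-fold were 26 of 69 tested genes higher in G&T than in Takara and 8 lower, 38 of 69 higher in G&T than in NEB and 8 lower, and 28 of 65 higher in Takara than in NEB and 14 lower. The median log2 ratios were 0.60, 1.11 and 0.50. Over all tested genes, 25.7% were past 2-fold higher in G&T than in Takara and 17% lower. The shares were 48.7% and 19.5% for G&T over NEB, and 43.7% and 24.3% for Takara over NEB. These shares are the background for each list below, and no list was tested against them. The share of all genes with a read in any kept cell was not computed, so the counts of genes with a read have no background here.

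Ligands were mostly scarce. Among 11 ERBB ligands, 9 had reads in G&T and 9 in Takara, and 3 in NEB. Per length AREG, which encodes amphiregulin, an EGFR ligand, was the highest of them, with reads in 7 G&T, 9 Takara and 7 NEB cells and pooled levels of 59.3, 164 and 102 CPM. No cell held a read of PRL or INS, the genes of prolactin and insulin, so the cells had the PRLR transcript without that of its ligand at this depth. Of the ERBB ligands tested, 0 of 6 were past 2-fold higher in G&T than in Takara and 3 lower, 3 of 6 higher in G&T than in NEB and 1 lower, and 2 of 5 higher in Takara than in NEB and 0 lower.

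In the list of insulin and IGF ligands and binding proteins, IGFBP4, a secreted IGF binding protein, was highest per length, at 245 CPM in G&T and 118 CPM in Takara, and 54.4 CPM in NEB. IGF2R, which clears IGF2, was past 4-fold higher in G&T than in both others, at 71.7 CPM against 12.6 in Takara and 12.7 in NEB. All 4 tested genes of this list were past 2-fold higher in G&T than in Takara, 3 of 4 higher in G&T than in NEB, and 1 of 4 higher and 1 lower in Takara than in NEB.

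Among FGF ligands and co-receptors, SDC4, a cell surface proteoglycan, led per length with 134 CPM in G&T and 52.7 CPM in Takara, and 194 CPM in NEB and reads in all 33 cells. FGF2 was past 4-fold higher in NEB than in both others, with all 87 NEB reads in 1 cell. In this list 2 of 3 tested genes were past 2-fold higher in G&T than in Takara, 2 of 4 higher in G&T than in NEB with 1 lower, and 1 of 3 higher in Takara than in NEB with 2 lower.

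Along the prolactin axis, ELF5, a transcription factor of milk-forming cells, was highest per length, at 64.3 CPM in G&T and 119 CPM in Takara, and 214 CPM in NEB. JAK2, the kinase bound to PRLR, had reads in 4 G&T cells and 5 Takara cells at 5.26 and 3.33 CPM, and none in NEB. CISH, an inhibitor that STAT5 induces, was past 4-fold higher in Takara than in both others, at 33.2 CPM against 5.89 in G&T and 2.38 in NEB. Of the tested genes of the axis, 0 of 4 were past 2-fold higher in G&T than in Takara and 1 lower, 3 of 4 higher in G&T than in NEB and 1 lower, and 2 of 4 higher in Takara than in NEB.

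Among 13 adaptors, GRB2, which links receptors to RAS, was highest per length and had reads in every kept cell, with 265 CPM in G&T and 143 CPM in Takara, and 219 CPM in NEB. SHC1, another adaptor of ERBB receptors, stood at 64.5 CPM in G&T and 64.7 CPM in Takara, and 10.0 CPM in NEB, past 4-fold lower in NEB than in both others. GRB7 was lower in NEB likewise, with 1 read. Counts past 2-fold were 7 higher and 1 lower of 13 for G&T over Takara, 5 higher and 0 lower of 12 for G&T over NEB, and 3 higher and 4 lower of 11 for Takara over NEB.

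In the PI3K branch PIK3CA, the catalytic subunit of PI3K (35.7% G+C), was past 4-fold lower in Takara, at 8.28 CPM against 42.2 in G&T and 56.2 in NEB. AKT1, the kinase downstream (61.2% G+C), was past 4-fold lower in NEB, at 2.38 CPM against 39.1 in G&T and 18.9 in Takara. Counts past 2-fold were 7 higher and 0 lower of 10 for G&T over Takara, 5 and 1 of 10 for G&T over NEB, and 3 and 2 of 9 for Takara over NEB.

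In the RAS-MAPK branch the kinases MAP2K2 and MAPK3 were past 4-fold lower in NEB than in both others, at 1.76 and 0.251 CPM. Counts past 2-fold were 1 higher and 2 lower of 9 for G&T over Takara, 4 and 1 of 9 for G&T over NEB, and 5 and 2 of 9 for Takara over NEB.

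Among negative regulators DUSP4, a phosphatase of MAP kinases, was highest per length, at 170.5 CPM in G&T and 106 CPM in Takara, and 26.0 CPM in NEB. ERRFI1, an inhibitor of ERBB kinases, and DUSP6 were past 4-fold lower in NEB than in both others, with 5 and 0 reads. PTPN1, a phosphatase of INSR and IGF1R, was past 4-fold higher in G&T than in both others, at 87.2 CPM against 19.5 and 17.4. Counts past 2-fold were 4 higher and 0 lower of 10 for G&T over Takara, 6 and 1 of 9 for G&T over NEB, and 4 and 1 of 9 for Takara over NEB.

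Of 13 other receptor kinases, DDR1, a collagen receptor, was highest per length, at 124.9 CPM in G&T and 184 CPM in Takara, and 9.28 CPM in NEB. DDR1, FGFRL1, EPHA2 and EPHB4 were past 4-fold lower in NEB than in both others, as were EGFR, ERBB2, FGFR1 and FGFR4 among the receptors above. MET and AXL were past 4-fold higher in NEB. MET, the receptor of hepatocyte growth factor, had 86 reads in 6 NEB cells, 1 read in Takara and none in G&T, and AXL had 294 reads in 5 NEB cells against 17 in G&T and 26 in Takara. Counts past 2-fold were 1 higher and 0 lower of 7 for G&T over Takara, 5 and 2 of 8 for G&T over NEB, and 4 and 2 of 8 for Takara over NEB. For the neighbours of ERBB2 they were 0 and 2 of 4, 3 and 0 of 4, and 4 and 0 of 4.

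The levels of receptors within a protocol were compared from cell to cell by Spearman's rho over its 11 cells, for pairs in which both receptors had reads in at least 8 cells. The 21 pairs of G&T ran from -0.51 to 0.72 with a median of 0.29, the 21 pairs of Takara from -0.32 to 0.69 with a median of 0.09, and the 6 pairs of NEB from -0.45 to 0.43 with a median of 0.15. The highest values in G&T were those of EGFR with IGF1R (0.72), FGFR2 (0.72) and ERBB3 (0.64), and of FGFR2 with PRLR (0.62) and ERBB3 (0.61). The coefficient of ERBB2 with ERBB3 was 0.09 in G&T and 0.30 in Takara, that of ERBB3 with IGF1R 0.26 in G&T and 0.69 in Takara, and 0.21 in NEB, and that of ERBB3 with PRLR 0.17, -0.15 and -0.45. The number of receptors with a read had a rho with library size of 0.05 in G&T and -0.45 in Takara, and 0.17 in NEB. With the number of genes in the cell it was 0.31, -0.29 and 0.50. With the spike-in share it was 0.06, 0.14 and -0.46, and with the share of mitochondrial reads -0.11, 0.20 and -0.68. The summed receptor level had a rho with the number of genes of 0.71, -0.07 and 0.25, by protocol as before. Its rho with the spike-in share was -0.35, 0.21 and -0.61, and with library size -0.45, 0.19 and 0.19. With the mitochondrial share it was -0.13, 0.14 and 0.32. The part of these cell measures in the receptor levels was not tested. The points are cells of 1 run, and at such low counts these values describe the cells only.

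The genes whose levels across cells were most like those of ERBB2 and ERBB3 were sought among genes with reads in at least 8 kept cells of each protocol, by the mean of the 3 rho values within protocols. For ERBB2, 3090 genes were searched and the first were YBX1 (mean rho 0.63), HNRNPM (0.55) and TMEM165 (0.55). For ERBB3, with 3089 genes, they were WAC (0.68), ATXN3 (0.67) and TM9SF2 (0.59). Each rho rests on 11 cells, and in NEB only 3 cells had an ERBB2 read.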

How the data were processed

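Counts of reads per gene for single T47D cells were used as deposited. The authors trimmed reads with Trim Galore in 2 rounds, aligned them to GRCh38 with STAR and merged the cells of each protocol. The annotation release and strand setting are not given in the sources used here. No filter or normalization had been applied to the deposited counts. The cells kept were those that passed the study's quality thresholds, 11 per protocol. CPM was computed over reads on the 60279 genes, with 92 ERCC spike-ins and 4 unassigned categories left out. Ratios are log2 of (pooled CPM + 1) between protocols, over genes with at least 1 CPM in either, and 2-fold was taken as the rule of size. Intervals are 95% exact Poisson, conditional binomial or binomial, and the limit for a gene without reads is 3 reads. No p-value was computed. Transcripts came from GENCODE 44, which may not be the authors' release and held 56104 of the genes.

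Named are all receptors, the gene highest per kb in each list, genes past 4-fold in 1 direction against both other protocols, and the 3 genes most like ERBB2 and ERBB3. Some genes that this rule names are not reported here. The receptors and lists were chosen with earlier results of these data known. Alternatives covered detection, depth, scaling, pseudocount, cells and length. The calculation of the ratios was tested on simulated data that held counting error only, without a spread of levels between cells. Python 3.11.15, numpy 2.4.6, pandas 2.3.3, scipy 1.17.1, matplotlib 3.10.9, R 4.3.3 and edgeR 4.0.16 (TMM factors) were used.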

Additional observations from a re-analysis of the deposited data

Results flagged for a closer look

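Receptor reads were also present in wells that the comparisons left out, which is why they are listed here. In NEB, well B2 held 595 reads on the 10 receptors and well F2 held 1236. In G&T, well C2 held 574 and well F1 held 2019. Each had reads on 4 to 6 receptors, with most reads on PRLR (506, 1154, 495 and 1777), and these counts are above the 3 reads that a count of 0 allows. The other wells left out, F1 in NEB and C2 and F1 in Takara, had 3, 2 and 0 receptor reads.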

How the results depend on the processing

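No paired analysis was possible because the results come from no test and the well names only give places on separate plates.

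Requiring 5 reads brought the share of receptor and cell pairs in Takara from 80% to 66.4%, and all deposited cells to 69.2%. Leaving out single cells gave 76% to 80% in G&T, 78% to 81% in Takara and 46% to 50% in NEB. The mean receptor sum without PRLR was 343 CPM in G&T, 279 CPM in Takara and 250 CPM in NEB, and without single cells 2039 to 2348, 804 to 890 and 1647 to 1981 CPM.

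For G&T over Takara, leaving out single cells gave medians of 0.58 to 1.08, with 4 to 6 receptors past 2-fold higher in G&T and 1 to 2 in Takara, where a pseudocount of 5 CPM gave 0 and TMM scaling 2. For G&T over NEB the medians were 0.67 to 1.04, with 4 to 6 higher in G&T and 1 to 2 in NEB. There a pseudocount of 5 CPM left 1 receptor higher in NEB. The ratios relative to genes of like G+C left 2 higher in G&T, with that of FGFR4 dependent on the pseudocount. ERBB4 ran from -1.80 to 0.64 without single cells (0.64 without NEB cell E2), and ERBB3 to -0.20 relative to genes of like G+C. For Takara over NEB the medians were 0.26 to 0.63, with 4 to 5 higher in Takara and 4 in NEB. Relative to genes of like G+C the median was -0.45, 3 receptors were higher in Takara and ERBB3 was at -0.21.

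Without the filter on low values the share of all genes past 2-fold was 15.2% and 10.0% for G&T and Takara, 30.9% and 12.4% for G&T and NEB, and 30.9% and 17.2% for Takara and NEB. PRLR over ERBB3 per kb in G&T was 10.5 with the union of exons, and PRLR led under each length. With Pearson correlations 1 of the 3 genes most like ERBB2 and 1 of the 3 most like ERBB3 was shared. Leaving out mitochondrial reads shifted the median of all genes for G&T over Takara from 0.16 to 0.29.

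NEB levels of ERBB2, EGFR, FGFR1 and FGFR4 rest on 25, 3, 12 and 0 reads in 11 cells of 1 run, which limits any statement on single cells.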
